A study of Drosophila melanogaster with 12 samples.

Results

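RG11N is a laboratory strain of Drosophila melanogaster whose males the series describes as promiscuous, and its male forelegs were compared with those of the 3 other genotypes together. Its members here are the 3 RG11N libraries of 12 in all, chosen by the genotype label. Each was labelled a biological replicate, and the other 9 libraries came from the strain CO13N, the strain CS and the CS/CO13N hybrid, with 3 from each. Males of the strain CS are also labelled promiscuous, while those of CO13N and of the cross are labelled selective. No treatment, age or number of flies per library is given, nor are the direction and generation of the hybrid cross. The hybrid carries alleles of both CS and CO13N, so the 9 libraries stand for 2 parental strains and not for 3 unrelated ones. Each strain is a single line, and a difference seen here is a difference of the line RG11N.

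The male foreleg of the fly is both a limb and a taste organ. Its taste bristles hold neurons that touch other flies during courtship and read the waxes on their cuticle, and the ion channels ppk23, ppk25 and ppk29 are the best known receptors of that sense. Accessory proteins around the neurons bind hydrophobic molecules, detoxifying enzymes modify them, and the axons run through the leg nerve to the ventral nerve cord.

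Total counts were 33469978, 29916686 and 31807271 in RG11N replicates 1, 2 and 3, and 26374831 to 36034966 over all 12 libraries. Of 17807 gene identifiers, 10996 had enough counts to be tested. RG11N lay apart from the 9 others on the second principal component of all genes, which held 15.8% of the variance, at -33.4, -76.0 and -53.9 against -18.5 to 41.0. Markers matched a male leg: the summed level of testis and accessory gland genes was at most 4.94 CPM (counts scaled by library size) in every library, and the photoreceptor opsins Rh3, Rh4 and Rh6 were at most 1.05 CPM. Orco, the coreceptor of antennal odorant neurons, was at 1.22 and 1.07 CPM in RG11N replicates 1 and 2 and at 65.3 CPM in replicate 3. Like levels of 48.2 to 143 CPM stood in the 3 CS libraries and hybrid replicate 3. The antennal marker Obp83a was at 341 to 1310 CPM in these 5 libraries and at 3.45 to 8.78 CPM in the rest. lush, also taken as an antennal marker, did not split the libraries this way. It was at 58.7 to 142 CPM in CO13N, 60.9 to 225 CPM in CS, and 1.4 and 3.28 CPM in RG11N replicates 1 and 2. By Orco and Obp83a 5 libraries had raised antennal transcripts, and counts without them are given beside the gene lists. These 5 include all 3 CS libraries, so a fit without them compares RG11N replicates 1 and 2 with CO13N and the hybrid alone. Cyp4g1, the cytochrome P450 of oenocytes, stood at 147 CPM in RG11N replicate 2 and at 2.38 CPM or less in the other 11 libraries.

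RG11N forelegs had more transcript of many neuronal genes and of some taste receptors and detoxifying enzymes, and less of several sugar metabolism genes, of some proteasome subunits and of the water channel Drip. A gene was called where its adjusted p in edgeR's quasi-likelihood test (Benjamini-Hochberg over all tested genes) was under 0.05 for RG11N minus the mean of CO13N, hybrid and CS. Of the tested genes 824 (7.49%) were called, 427 higher (3.88%) and 397 lower (3.61%) in RG11N. In 540 of them (4.91%) the 3 RG11N libraries lay wholly above (291, 2.65%) or wholly below (249, 2.26%) all 9 others. Called or not, 475 genes (4.32%) lay wholly above and 337 (3.06%) wholly below. A called difference of at least 2-fold was seen in 137 higher (1.25%) and 131 lower genes (1.19%). The median log2 difference over all tested genes was 0.001.

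The separated genes differed from each genotype by a like amount. The 291 higher genes had median log2 differences of 0.67 from CO13N, 0.71 from the hybrid and 0.76 from CS, and the 249 lower genes of -0.76, -0.86 and -0.81. These 3 comparisons share the RG11N libraries and the genes were chosen by their separation, so the medians describe the set and test nothing. The count of calls was 450 without RG11N replicate 2, 525 without RG11N replicate 3 and 340 without the 5 libraries with antennal transcripts. That last fit leaves 2 RG11N libraries against 5 and no CS library, so antennal transcripts, the loss of a genotype and the smaller number of samples cannot be told apart in it.

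**Figure D1:**
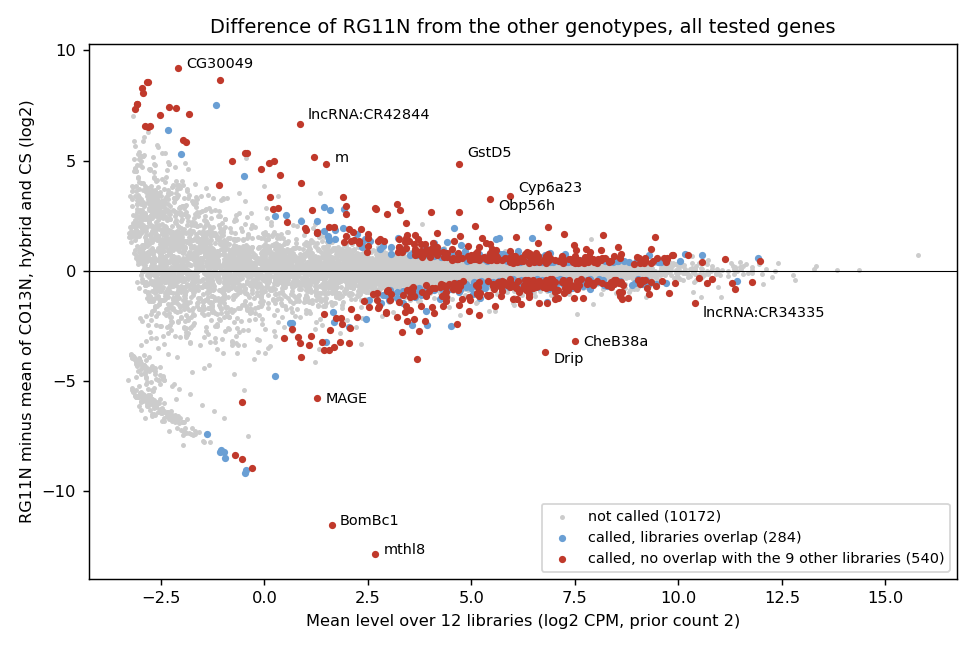
Log2 difference of RG11N from the mean of CO13N, hybrid and CS (vertical axis) against the mean level over 12 libraries (horizontal axis, log2 CPM) for the 10996 tested genes, each a point. Red points are the 540 called genes whose RG11N libraries do not overlap the 9 others, blue points the 284 called genes that overlap, and labels mark single genes, from mthl8 at the bottom, with no count in RG11N, to CG30049 at the top.

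**Figure D2:**
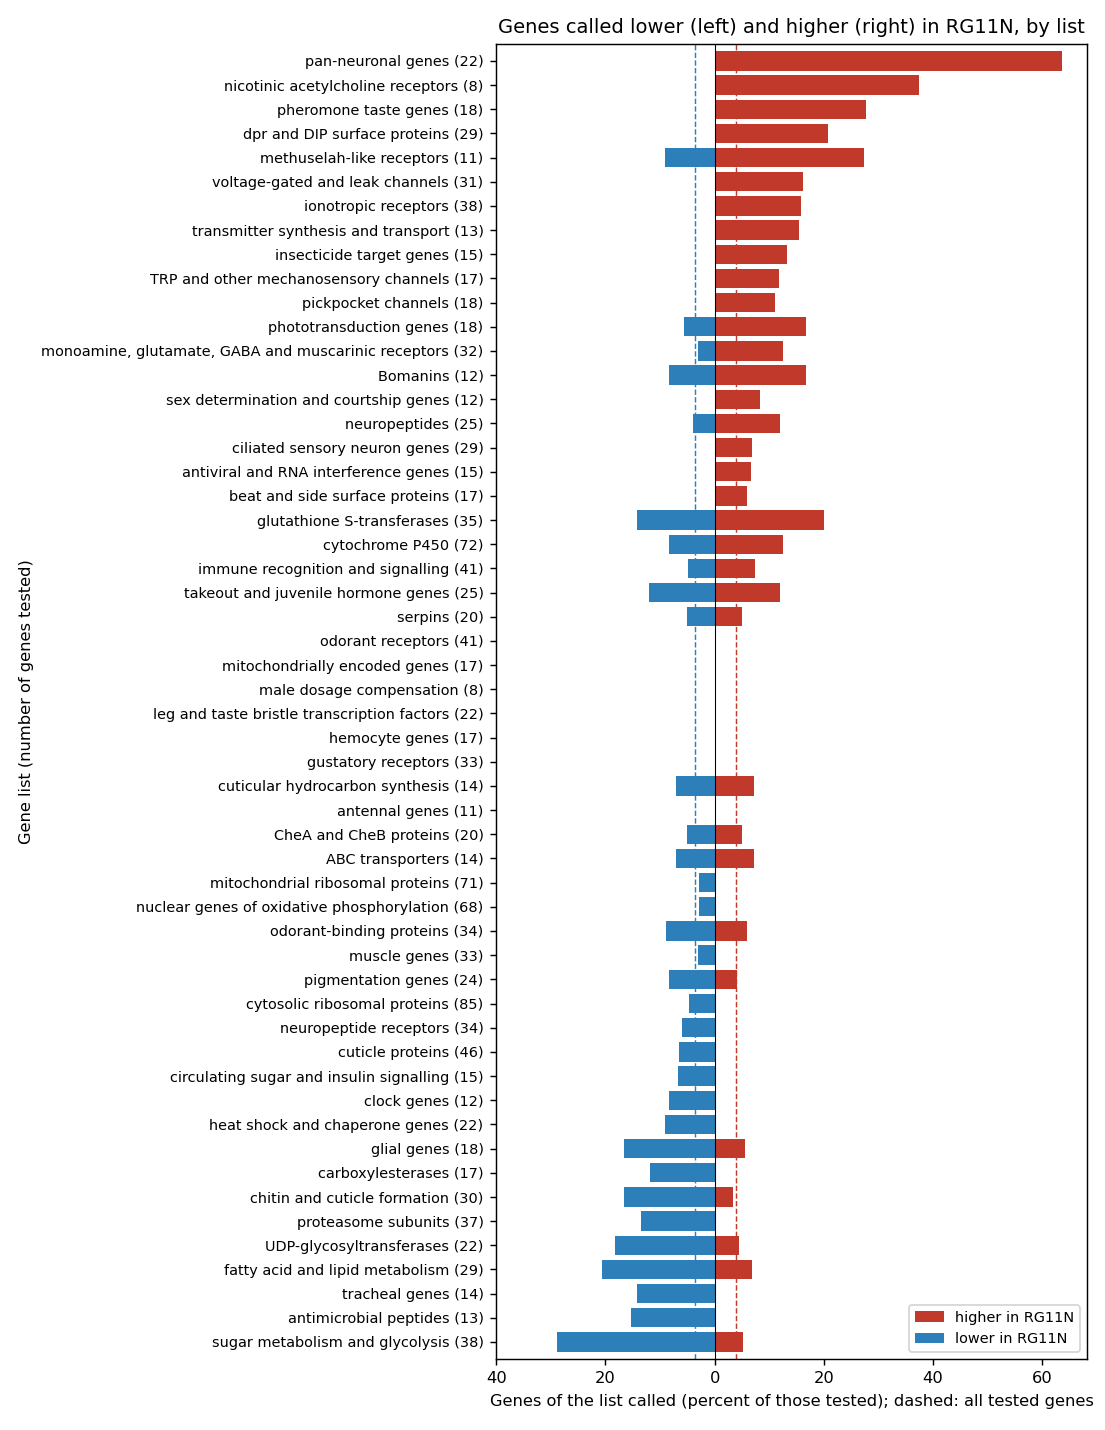
Percentage of tested genes called higher (right, red) and lower (left, blue) in RG11N for each gene list with at least 8 tested genes, with the number tested in brackets. Dashed lines mark the 3.88% higher and 3.61% lower of all tested genes; pan-neuronal genes have the longest bar to the right and sugar metabolism the longest to the left.

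A few transcripts were at 0 on one side. mthl8, a methuselah-like G protein-coupled receptor at 22428 to 26308 on the plus strand of arm 3L (dm6, as for all positions here), had 0 counts in the 3 RG11N libraries. Means were 31.6 CPM in CO13N, 36.4 CPM in the hybrid and 23.6 CPM in CS, and the lowest of these 9 libraries stood at 17.5 CPM. Against a floor of 3 counts over the pooled RG11N libraries it was at least 988-fold lower in RG11N (adjusted p = 1.53e-10, edgeR).

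BomBc1, a Bomanin immune peptide gene at 18382704 to 18383235 on the minus strand of arm 2R, also had 0 counts in RG11N. The other libraries ranged from 3.24 to 28.7 CPM, so it was at least 442-fold lower (adjusted p = 1.65e-05, edgeR). In all, 12 called genes had no count in RG11N and 7 had none in the 9 others. Of the latter the one with the most counts was CG11703, with 145 counts in RG11N and a level at least 143-fold higher. Cyp313a5 and Cyp313a3, cytochrome P450 genes near each other on arm 3R, were among them, with 100 and 62 counts. The call of Cyp313a5 was lost without RG11N replicate 2 or 3 and that of Cyp313a3 in each of the 12 fits that left out 1 library.

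Pan-neuronal genes were higher in RG11N. Of 22 tested genes that neurons of all kinds use, 14 were called higher and 0 lower, against 3.88% of all genes higher. No overlap was seen in 11 of the 14, and in 291 of the 427 genes called higher over all tested genes. The median log2 difference was 0.47, 21 of the 22 were above 0 and the list's summed level was 11302 to 12469 CPM in RG11N and 7922 to 9786 CPM in the other libraries. The list of ciliated sensory neuron genes gave another picture. Of 29 tested, 2 were called higher (6.90%) and 0 lower, with a median of 0.07 and 21 above 0. Their summed level was 1399 to 1855 CPM in RG11N and 1408 to 1865 CPM in the other libraries. In whole legs more neuronal RNA per cell and a larger share of neurons cannot be told apart.

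elav, the RNA-binding protein used as a mark of neurons, stood at 97.8, 103 and 95 CPM in RG11N and between 59.6 and 94.2 CPM in the 9 others. The RG11N libraries were above all others by a small margin, with a log2 difference of 0.49 ± 0.11 (SE, n = 3 against 9; adjusted p = 0.00715, edgeR). cpx encodes complexin, which clamps synaptic vesicle fusion. Its levels were 1120, 1333 and 1633 CPM in RG11N and 717 to 1007 CPM elsewhere, a log2 difference of 0.72 ± 0.12 (adjusted p = 0.000866, edgeR).

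brp, the scaffold of the presynaptic active zone, was at 354, 386 and 335 CPM in RG11N and 208 to 283 CPM in the others, with no overlap and a log2 difference of 0.55 ± 0.11 (adjusted p = 0.00272, edgeR). nSyb, the vesicle SNARE of neurons, differed by 0.48 ± 0.10 (adjusted p = 0.00710, edgeR). nrv3, a neuronal subunit of the sodium pump, was at 2520 to 3328 CPM against 1599 to 2426 CPM and differed by 0.55 ± 0.11 (adjusted p = 0.00479, edgeR). The genes Syt1, fne, Rab3, Syx1A, futsch, comt, Snap25, Cadps and Frq1, named after their values were seen, made up the rest of the 14, between 0.37 and 0.57 on the log2 scale.

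The call of elav rested on RG11N replicate 2 (adjusted p = 0.0505 without it) and that of nSyb on RG11N replicate 3 (0.0688 without it). Of the list, 9 genes were called without replicate 2 and 6 without replicate 3, with 21 above 0 each time and medians of 0.44 and 0.37. Without the 5 libraries with antennal transcripts, 2 were called, the median was 0.34 and 21 were above 0; adding the odorant receptor sum to the model left 14 called, and adding the muscle sum left 14 with a median of 0.44. Lists of some other leg tissues had medians below 0. These were muscle genes at -0.61 with 3 of 33 above 0, tracheal genes at -0.26 with 4 of 14, and cuticle proteins at -0.98 with 10 of 46. The tracheal sum was 2396 to 3459 CPM in RG11N and 3715 to 5314 CPM in the others, while the muscle and cuticle protein sums overlapped. Of the tracheal genes 2 were called lower (14.3%, against 3.61% of all genes) and 0 higher, with 1 lower without RG11N replicate 2 or 3. The muscle median was -0.07 with the replicate number as a block and -0.13 without CO13N replicate 1. Hemocyte genes had a median of 0.04 with 9 of 17 above 0, and fat body genes 0.16 with 4 of 7. The part of tissue makeup in the neuronal difference was not tested beyond the muscle sum in the model. The 18 tested glial genes had a median of 0.001. Of them 1 was called higher (5.56%) and 3 lower (16.7%), against 3.88% and 3.61% of all genes. repo, the glial transcription factor, was at 24.5, 18.4 and 14.0 CPM in RG11N and 11.9 to 20.9 CPM elsewhere (log2 difference 0.14 ± 0.18, adjusted p = 0.745, edgeR).

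**Figure D3:**
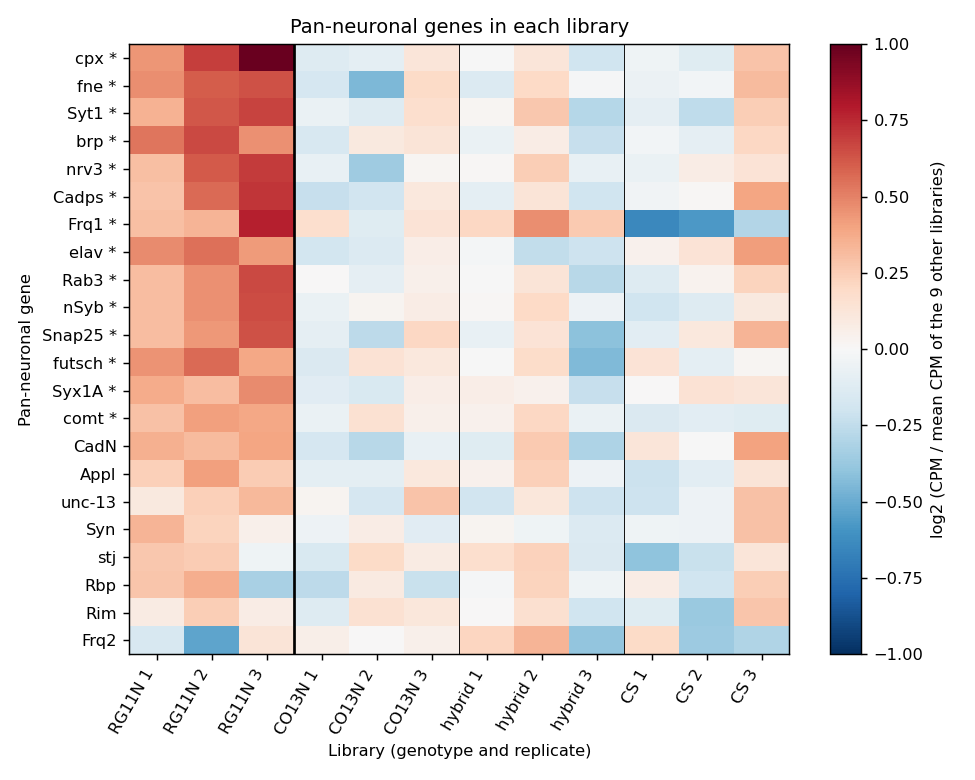
Level of the 22 pan-neuronal genes in each library as log2 of its CPM over the mean CPM of the 9 libraries that are not RG11N; colours run from -1 (blue) to 1 (red), and a star marks a called gene. The 3 RG11N columns at left are red for nearly all genes, while Frq2 at the bottom is below 0 in 2 of them.

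Some channels and surface proteins of neurons were also higher. Of 31 tested voltage-gated and leak channels and their subunits, 5 were called higher (16.1%, against 3.88% of all genes) and 0 lower. Their median was 0.29, with 25 above 0. Teh2, an auxiliary subunit of the sodium channel para, was at 415, 512 and 539 CPM in RG11N and 271 to 375 CPM in the others and did not overlap (log2 difference 0.65 ± 0.11, adjusted p = 0.00138, edgeR). Its exons overlap those of Teh3 on the same strand, so counts of the pair are uncertain. cac, the presynaptic calcium channel, rose by 0.64 ± 0.14 on the log2 scale (adjusted p = 0.00796, edgeR), a call that was lost without RG11N replicate 2 or 3 (highest adjusted p = 0.0604). The hyperpolarisation-activated channel Ih differed by 0.44 ± 0.10 (adjusted p = 0.00754; 0.0556 without RG11N replicate 2). The channel count was 1 without RG11N replicate 2, 8 without CS replicate 3, and 0 without the 5 libraries with antennal transcripts, with 27 of the 31 then above 0.

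The dpr and DIP proteins are cell surface partners through which neurons recognise each other. Of 29 tested, 6 were called higher (20.7%, against 3.88% of all genes) and 0 lower, with a median of 0.46 and 26 above 0. The largest of the 6 differences was that of dpr6, which was at 14.3, 15.5 and 10.7 CPM in RG11N against 2.48 to 7.10 CPM elsewhere, with no overlap (log2 difference 1.65 ± 0.27, adjusted p = 0.000561, edgeR). The list's count was 3 without RG11N replicate 2, 2 without RG11N replicate 3, 10 without CS replicate 3 and 1 without the 5 libraries with antennal transcripts. Among guidance genes named after their values were seen, Sema2b, a secreted semaphorin, was at 132, 133 and 119 CPM in RG11N and 55.5 to 98.3 CPM elsewhere (log2 difference 0.86 ± 0.12, adjusted p = 0.000204, edgeR). The teneurin Ten-a differed by 0.57 ± 0.10 (adjusted p = 0.00133), also with no overlap.

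Dopamine receptors moved in opposite directions. Dop1R1, a receptor that raises cAMP, was at 54.4, 44.6 and 62.2 CPM in RG11N and between 19.8 and 34.4 CPM in the 9 others. The log2 difference was 1.10 ± 0.16 (adjusted p = 0.000183, edgeR), and the differences from CO13N, hybrid and CS were 1.19, 1.12 and 0.99. Dop2R, the receptor that lowers cAMP, was at 13.8, 14.2 and 7.46 CPM in RG11N and between 27.0 and 42.6 CPM elsewhere.

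Neither receptor overlapped. The Dop2R log2 difference was -1.56 ± 0.21 (adjusted p = 9.02e-05, edgeR), and -1.51, -1.60 and -1.55 against CO13N, hybrid and CS. Both calls held in each of the 12 fits that left out 1 library and in the 13 other settings tried. Of the 32 tested monoamine, glutamate, GABA and muscarinic receptors, 4 were called higher (12.5%, against 3.88% of all genes) and Dop2R alone lower. The count of higher calls was 2 without RG11N replicate 3. TyrR, a tyramine receptor, differed by 2.002 ± 0.32 (adjusted p = 0.000496), with log2 differences of 0.94 from CO13N, 2.02 from the hybrid and 3.05 from CS. The GABA receptor Rdl differed by 0.58 ± 0.13 (adjusted p = 0.00893), a call lost without RG11N replicate 2 or 3 (highest adjusted p = 0.0566).

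Of 8 tested nicotinic acetylcholine receptor subunits, 3 were called higher (37.5%, against 3.88% of all genes) and 0 lower. nAChRalpha3 was at 29.5, 35.5 and 29.4 CPM in RG11N against 0.584 to 9.74 CPM elsewhere, far from overlap, with a log2 difference of 2.57 ± 0.30 (adjusted p = 7.91e-05, edgeR). An opposite-strand gene, CG1636, overlaps it and the strandedness of counting is not stated. The calls of nAChRalpha4 (0.50 ± 0.15, adjusted p = 0.0450) and nAChRalpha7 (0.63 ± 0.18, adjusted p = 0.0432) rested on single libraries: they held in 4 and 3 of the 12 fits that left out 1 library. The libraries whose omission left nAChRalpha3 as the only called subunit were CO13N replicates 1 and 2, CS replicate 2, hybrid replicate 3 and RG11N replicates 2 and 3, and 1 subunit was also called without the 5 libraries with antennal transcripts.

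Acetylcholine synthesis and transport gave unlike values. VAChT, the vesicular transporter, was called (0.55 ± 0.12, adjusted p = 0.00600, edgeR), and ChAT, the synthesising enzyme, was not (-0.06 ± 0.11, adjusted p = 0.853); the pair share exons on one strand, so how their counts were split is uncertain. Neuropeptide genes had 3 of 25 called higher and 1 lower, against 3.88% and 3.61% of all genes. The share called lower was thus close to that of all genes. None was called either way without the 5 libraries with antennal transcripts. NPF, a peptide known for feeding and mating drive, was at 7.86, 18.2 and 14.1 CPM in RG11N and 29.7 to 77.2 CPM elsewhere, with no overlap and a log2 difference of -2.003 ± 0.38 (adjusted p = 0.0113; 0.0661 without RG11N replicate 3). ITP, the ion transport peptide, was at 287 to 348 CPM in RG11N and 149 to 279 CPM in the others (0.65 ± 0.13, adjusted p = 0.00280). Burs, a subunit of the tanning hormone bursicon, was at 4.79, 4.92 and 6.62 CPM in RG11N, at 0.461 to 2.30 CPM in CO13N and hybrid, and at 0 in the 3 CS libraries, so no fold is given.

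Several pheromone and taste genes were higher in RG11N. Of 18 tested genes linked to pheromone taste, 5 were called higher (27.8%, against 3.88% of all genes) and 0 lower. The list's median was 0.10, with 10 above 0. Its summed level was 6204 to 7578 CPM in RG11N and 4945 to 8035 CPM elsewhere. The 5 called genes were ppk23, ppk29, Ir52b, Ir52c and Obp57e, 2 of them with no overlap. ppk23 was at 1595, 1840 and 1792 CPM in RG11N and between 779 and 1401 CPM in the 9 others, and the libraries did not overlap. Its log2 difference was 0.71 ± 0.14 (adjusted p = 0.00441, edgeR), and 0.63, 0.82 and 0.66 against CO13N, hybrid and CS.

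ppk29, its partner subunit, was at 102, 146 and 133 CPM against 48.9 to 110 CPM, with overlap, and differed by 0.76 ± 0.16 (adjusted p = 0.00818). That call was lost without RG11N replicate 2 or 3, with a highest adjusted p of 0.0722, and ppk29 overlaps sei and CG13563 on the opposite strand. ppk25, the third channel of the set, was at 129, 184 and 161 CPM in RG11N and 95 to 202 CPM elsewhere (0.25 ± 0.19, adjusted p = 0.507). Gr32a, a receptor for male pheromones, was low throughout, at 0.962 to 12 CPM in RG11N and 2.16 to 7.10 CPM in the others (0.31 ± 0.51, adjusted p = 0.814). The count for the list was 3 without RG11N replicate 2 or 3 and 2 without the 5 libraries with antennal transcripts.

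Among 38 tested ionotropic receptors, 6 were called higher (15.8%, against 3.88% of all genes) and 0 lower, although the list's median was -0.02. Ir52b, a receptor of leg taste neurons, was at 55.2, 70.8 and 58.5 CPM in RG11N and between 10.6 and 31.1 CPM in the other genotypes. No library overlapped, and the log2 difference was 1.59 ± 0.18 (adjusted p = 3.11e-05, edgeR), with 1.40, 1.504 and 1.85 against CO13N, hybrid and CS. Ir52c, its neighbour in the family, differed by 0.77 ± 0.15 (adjusted p = 0.00257), with overlap.

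Ir76a, an antennal amine receptor in textbook accounts, was at 30.03, 28.2 and 35.6 CPM in RG11N and 1.05 to 8.68 CPM elsewhere (2.85 ± 0.47, adjusted p = 0.00492, edgeR). Orco was at 1.22 and 1.07 CPM in RG11N replicates 1 and 2 and at 65.3 CPM in replicate 3, the library with the highest Ir76a. The Ir76a call held in each of the 12 fits that left out 1 library and in the 13 other settings tried. Those settings included the odorant receptor sum in the model and the fit without the 5 libraries with antennal transcripts. Over all these fits the log2 difference lay between 2.71 and 3.11. Beyond them, a part of antennal transcripts in the Ir76a difference was not tested. The gene CG14102 overlaps Ir76a on the opposite strand. The ionotropic receptor count was 2 without the 5 libraries with antennal transcripts. None of 33 tested gustatory receptors and none of 41 tested odorant receptors was called. The odorant receptor list had a median of 0.99 and a summed level of 21.7 to 138 CPM in RG11N against 13.4 to 250 CPM elsewhere.

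A few genes of binding proteins of sensory bristles differed, in both directions. Obp56h, an odorant-binding protein gene at 19815554 to 19816204 on arm 2R, was at 211, 262 and 247 CPM in RG11N and between 16.7 and 44.1 CPM in the other genotypes. The groups stood far apart, with a 9.53-fold difference (log2 3.25 ± 0.19, adjusted p = 7.29e-07, edgeR) and log2 differences of 3.19, 3.61 and 2.96 from CO13N, hybrid and CS. Of 34 tested odorant-binding proteins 2 were called higher (5.88%) and 3 lower (8.82%), against 3.88% and 3.61% of all genes. Obp8a fell by 1.78 on the log2 scale (SE 0.27, adjusted p = 0.000345, edgeR). Higher calls numbered 1 without RG11N replicate 3 and 4 without CO13N replicate 3 or CS replicate 2, and DESeq2 called 6 higher and 5 lower.

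CheB38a belongs to a family of secreted proteins of pheromone-sensing bristles and lies at 20817815 to 20818532 on arm 2L. Its levels were 34.1, 39.8 and 29.6 CPM in RG11N and 168 to 674 CPM in the others, with no overlap and a 9.28-fold lower mean (log2 -3.21 ± 0.25, adjusted p = 5.35e-06, edgeR). CheB53a of the same family was higher, at 770, 1404 and 1148 CPM against 442 to 758 CPM (0.99 ± 0.19, adjusted p = 0.00587; 0.0516 without RG11N replicate 3). These were the 2 called genes of 20 tested CheA and CheB genes, 5.0% in each direction and so near the 3.88% and 3.61% of all genes. Higher calls numbered 4 without RG11N replicate 1, 2 without CS replicate 3 or hybrid replicate 3, 0 without RG11N replicate 3, 0 without the 5 libraries with antennal transcripts and 3 with DESeq2.

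**Figure D4:**
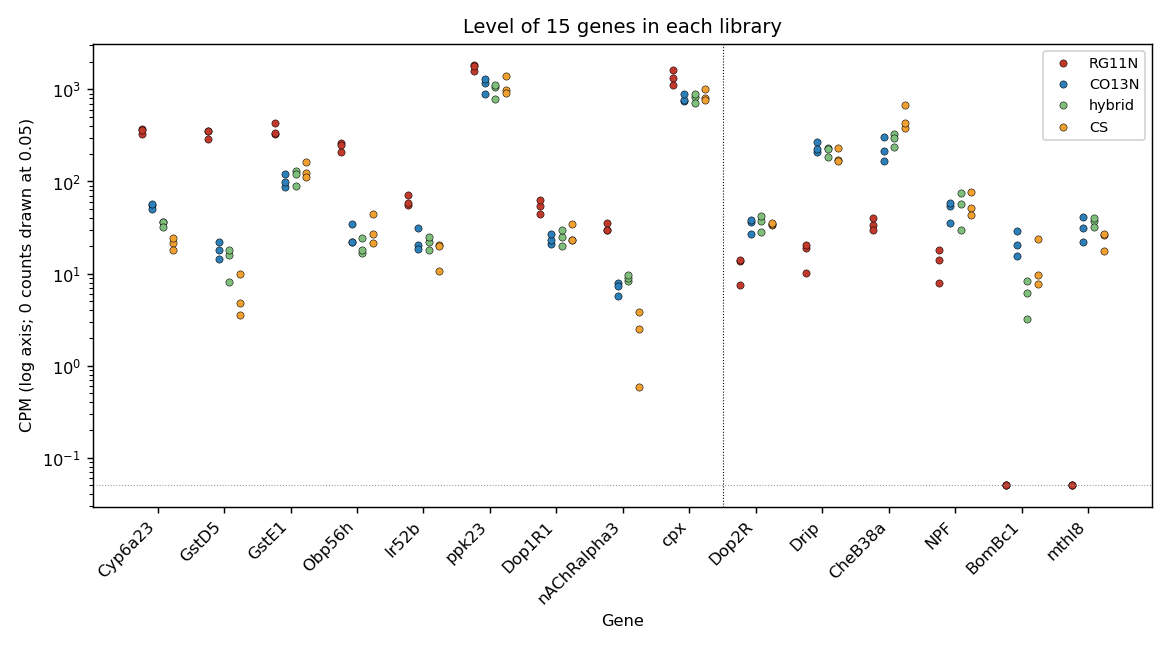
CPM of 15 genes (horizontal axis) in each of the 12 libraries on a log axis, coloured by genotype, with counts of 0 drawn at 0.05. RG11N points lie above all others for the 9 genes left of the dotted line, such as Cyp6a23 and Obp56h, and below all others for the 6 genes right of it, with BomBc1 and mthl8 at 0.

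Detoxifying enzymes moved in both directions. Of 72 tested cytochrome P450 genes 9 were called higher and 6 lower, and of 35 glutathione S-transferases 7 higher and 5 lower, against 3.88% and 3.61% of all genes; their medians were -0.11 and -0.03. Cyp6a23, a P450 gene at 14875829 to 14877654 on arm 2R, was at 369, 332 and 366 CPM in RG11N, 49.8 to 56.9 CPM in CO13N, 31.9 to 36.3 CPM in the hybrid and 18.1 to 24.5 CPM in CS. RG11N lay far above the rest, 10.4-fold over the mean of the others (log2 3.38 ± 0.10, adjusted p = 3.24e-14, edgeR).

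Cyp6a17, the neighbour of Cyp6a23 on the same strand, went the other way, at 105, 52.2 and 81.3 CPM in RG11N against 117 to 193 CPM (log2 -0.96 ± 0.16, adjusted p = 0.00118; named after its values were seen). The genes of this cluster resemble each other and how reads that fit several places were counted is not stated, so the split between them is uncertain. Cyp6a20, a P450 linked to male aggression, was at 742, 564 and 629 CPM in RG11N, 481 to 498 CPM in CO13N, 303 to 360 CPM in the hybrid and 180 to 182 CPM in CS (1.06 ± 0.10, adjusted p = 1.15e-06). Cyp4p3 fell by 2.77 on the log2 scale (SE 0.24, adjusted p = 7.29e-07) and Cyp4p1 rose by 1.16 ± 0.12 (adjusted p = 3.83e-06).

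The P450 count included Cyp4g1, called on 1 library alone at 0, 156 and 1.03 CPM in RG11N (adjusted p = 0.911 without replicate 2). Higher P450 calls numbered 5, 4 and 5 without RG11N replicates 1, 2 and 3, and lower calls 11 with DESeq2. Without the 5 libraries with antennal transcripts 6 were higher and 4 lower.

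GstD5, a glutathione S-transferase at 12375733 to 12376572 on arm 3R, was at 358, 290 and 354 CPM in RG11N against 3.54 to 22.1 CPM elsewhere, a 28.8-fold difference (log2 4.85 ± 0.29, adjusted p = 1.65e-05, edgeR). Its neighbours GstD4 (3.97 ± 0.53, adjusted p = 0.000306) and GstD3 (1.16 ± 0.18, adjusted p = 0.000389) were also called higher, and the 3 form a run of adjacent called genes over 12373068 to 12376572. Members of this cluster resemble each other, so their counts are uncertain in the same way. Outside the run, GstD9 and GstD8 were also called higher (adjusted p = 2.18e-05 and 0.00817, edgeR). Their log2 differences were 1.14 to 1.455 and 0.35 to 0.78 over the varied fits. The GstD8 call was lost without RG11N replicate 3 and without the 5 libraries with antennal transcripts. GstD1, another member of the cluster, was not called (-0.24, adjusted p = 0.352).

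GstE1, on arm 2R, was at 433, 330 and 333 CPM in RG11N and 86.8 to 162 CPM elsewhere, with no overlap (1.67 ± 0.13, adjusted p = 3.51e-07, edgeR); GstE10 overlaps it on the opposite strand. GstE11 was lower by the contrast (-1.25 ± 0.18, adjusted p = 0.000158) but RG11N, at 14.2 to 22.9 CPM, overlapped CO13N at 12.4 to 19.5 CPM, while the hybrid reached 73.8 and CS 112 CPM. UDP-glycosyltransferases had 1 gene called higher (4.55%) and 4 lower (18.2%) of 22, against 3.88% and 3.61% of all genes. Ugt36A1 fell by 1.06 ± 0.16 (adjusted p = 0.000238, edgeR) with no overlap. Without RG11N replicate 2 or hybrid replicate 1, 2 were lower. The lower glutathione S-transferases numbered 3 without RG11N replicate 2, and without the 5 libraries with antennal transcripts 4 were higher and 2 lower.

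**Figure D5:**
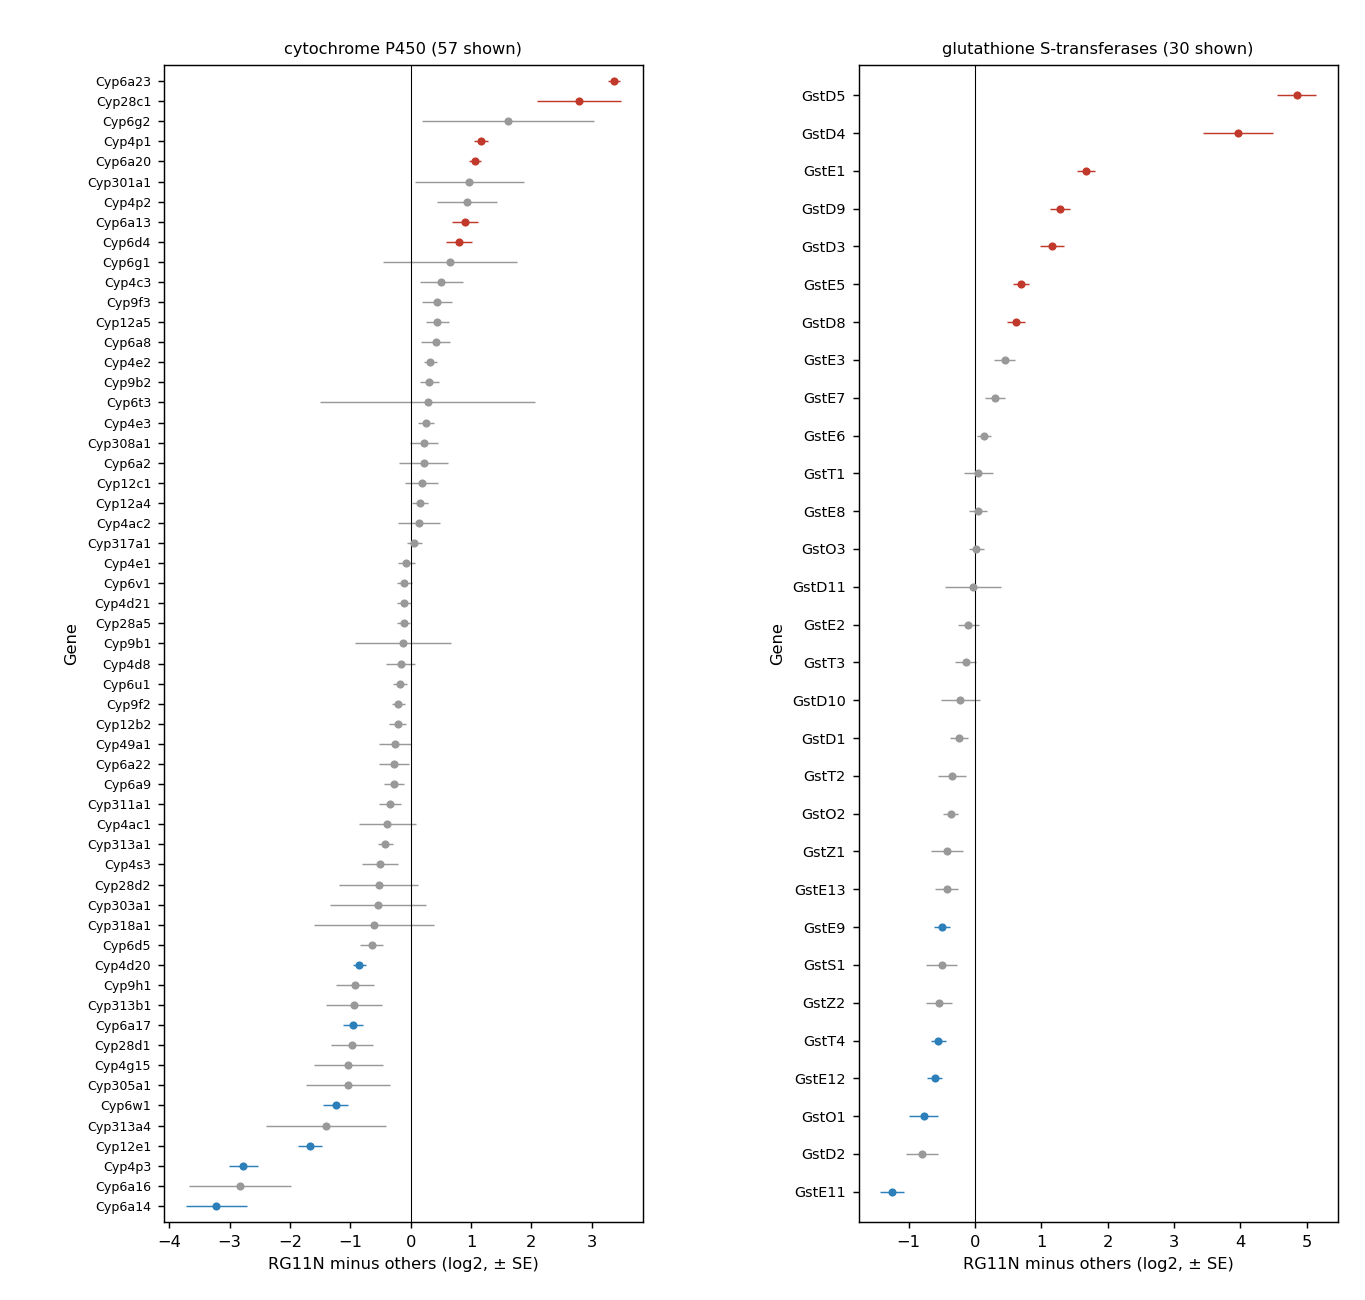
Log2 difference of RG11N from the other genotypes, with standard error bars, for the 57 cytochrome P450 genes (left) and 30 glutathione S-transferases (right) whose mean log2 CPM was 0 or more. Red points were called higher and blue lower; Cyp6a23 and GstD5 have the largest differences at the top, and Cyp6a14 and GstE11 the lowest values at the bottom.

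Immune genes were split. The Bomanin BomBc3 was higher where BomBc1 was absent: it stood at 129, 139 and 54.9 CPM in RG11N and 8.81 to 32.6 CPM elsewhere (log2 2.65 ± 0.32, adjusted p = 0.00114, edgeR). Among 12 tested Bomanins 2 were called higher (1 without RG11N replicate 1 or 2) and 1 lower, and among 13 antimicrobial peptides 0 higher and 2 lower. These are 16.7% and 8.33% of the Bomanins and 0% and 15.4% of the antimicrobial peptides, against 3.88% and 3.61% of all genes. The antimicrobial count was 1 in 8 of the 12 fits that left out 1 library (CO13N replicate 3, CS replicates 1 and 2, each hybrid library, and RG11N replicates 1 and 2). It was 3 without RG11N replicate 3 and 0 without the 5 libraries with antennal transcripts, where Bomanins had 1 higher and 2 lower. Tep2, a thioester protein of the immune response, was at 558 to 592 CPM in RG11N and 262 to 441 CPM in the others (0.74 ± 0.10, adjusted p = 0.000155). Of 11 tested methuselah-like receptors, 3 were called higher (27.3%) and 1 lower (9.09%), against 3.88% and 3.61% of all genes. Among the 3 higher, mthl3 (2.77 ± 0.31, adjusted p = 0.000129, edgeR) and mthl4 (1.60 ± 0.19, adjusted p = 3.32e-05) did not overlap. mthl3 was at 36.3, 52.4 and 39.9 CPM against 2.12 to 10.6 CPM.

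Many genes of sugar metabolism were lower in RG11N. Of 38 tested genes of sugar metabolism and glycolysis, 11 were called lower and 2 higher, against 3.61% of all genes lower, with a median of -0.44 and 7 above 0. Aldh, which oxidises acetaldehyde to acetate, was at 208, 237 and 245 CPM in RG11N and 324 to 578 CPM in the others, with no overlap (log2 -0.98 ± 0.15, adjusted p = 0.000496, edgeR). Gpdh1, which makes glycerol phosphate, fell by 0.61 ± 0.14 (adjusted p = 0.00934; 0.0703 without RG11N replicate 3). The others, named after their values were seen, were the glycolytic enzymes Pgi, Tpi, Pgk and PyK, lactate dehydrogenase Ldh, phosphoglucomutase Pgm1, the pentose phosphate entry enzyme Zw and malic enzyme Men, between -1.03 and -0.36; the maltase Mal-A1 fell by 0.66 ± 0.13 (adjusted p = 0.00354). The maltase Mal-B2 rose by 0.84 ± 0.13 (adjusted p = 0.000399), with no overlap.

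The number of lower sugar genes depended on single libraries. It was 6, 6 and 2 without RG11N replicates 1, 2 and 3, 7, 6, 7 and 4 without CO13N replicate 2, CS replicate 2, hybrid replicate 1 and hybrid replicate 3, and 1 without the 5 libraries with antennal transcripts. The median stayed below 0 in the fits that left out an RG11N library, at -0.43, -0.61 and -0.39. The summed level of muscle genes, from a tissue that also uses these enzymes, ranged from 4716 to 14143 CPM in RG11N and from 4844 to 32499 CPM elsewhere. Of 33 tested muscle genes, 1 was called lower, and their median was -0.61 with 3 above 0. Single libraries moved that median: it was -0.13 without CO13N replicate 1, -0.16 without RG11N replicate 1, -0.29 without hybrid replicate 1, -0.365 without CS replicate 1 and -1.09 without RG11N replicate 2. With that sum as a covariate 12 sugar genes were called lower with a median of -0.32. Mhc, the muscle myosin heavy chain, spread from 333 to 1946 CPM within RG11N and 430 to 5030 CPM in the others (-0.95 ± 0.90, adjusted p = 0.644).

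A few metabolic genes outside that list are named because their values were seen to be low, so they say nothing of other such genes. Shmt, the serine hydroxymethyltransferase of one-carbon metabolism, was at 4.16, 4.49 and 1.49 CPM in RG11N and 11.8 to 19.4 CPM elsewhere (-2.30 ± 0.30, adjusted p = 7.46e-05, edgeR); CG12236 overlaps it on the opposite strand. Transaldolase Taldo (-0.82 ± 0.12, adjusted p = 0.000222), the carnitine transferase CPT2 (-0.65 ± 0.12, adjusted p = 0.00228) and the peroxisomal oxidase Acox3 (-0.80 ± 0.12, adjusted p = 0.000441) did not overlap. Of 29 genes of fatty acid and lipid metabolism 6 were called lower (20.7%) and 2 higher (6.90%), against 3.61% and 3.88% of all genes, with a median of -0.28. That median lay between -0.23 and -0.03 in the 12 fits that left out 1 library, which tested 30 to 32 genes of the list, nearest to 0 without RG11N replicate 2 (-0.03) and hybrid replicate 3 (-0.05), and was -0.11 with the hybrid left out of the contrast. The lower count was 2 without RG11N replicate 2 or 3, 1 without the 5 libraries with antennal transcripts and 10 with DESeq2. mdy, which makes triacylglycerol, fell by 0.84 ± 0.16 (adjusted p = 0.00334), with overlap.

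Drip, an aquaporin, was far lower in RG11N. It lies at 11411203 to 11429645 on the minus strand of arm 2R. It was at 18.9, 20.6 and 10.2 CPM in RG11N and 167 to 266 CPM in the 9 others, a 12.8-fold difference (log2 -3.67 ± 0.22, adjusted p = 1.71e-07, edgeR). The differences from CO13N, hybrid and CS were -3.82, -3.68 and -3.52. CG7763, which lies within the span of Drip at 11414510 to 11415462, had 0 counts in RG11N and 637 in the others together. It was also at 0 in hybrid replicate 1 and at 1.88 to 3.501 CPM in the other 8 libraries, so the groups overlapped, and its call (adjusted p = 0.00537, edgeR) was lost with voom and without the 5 libraries with antennal transcripts. lncRNA:CR43771, at 11432650 to 11433298, had 139 counts in RG11N and 0 in the others, so it was at least 137-fold higher (adjusted p = 0.0105, edgeR; 0.0573 without RG11N replicate 2).

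Some genes of the cuticle were lower by smaller amounts. osy, an ABC transporter needed for the lipid barrier of cuticle and trachea, was at 1913, 1502 and 1658 CPM in RG11N and 2557 to 3513 CPM elsewhere, with no overlap (-0.85 ± 0.12, adjusted p = 0.000154, edgeR). snu, another such transporter, fell by 0.54 ± 0.11 (adjusted p = 0.00419). bond, an elongase of long fatty acids, was at 15.4, 16.0 and 18.7 CPM against 25.8 to 53.8 CPM (-1.20 ± 0.20, adjusted p = 0.00103). Of 30 genes of chitin and cuticle formation 5 were called lower (16.7%) and 1 higher (3.33%), against 3.61% and 3.88% of all genes. Their median was -0.43, with 4 above 0. The chitin-binding protein obst-E fell by 1.33 ± 0.18 (adjusted p = 0.000119), from 22.4 to 67.8 CPM in the others to 12.6 to 20.1 CPM, while the chitinase-like Idgf2, Idgf3 and Idgf4 differed by -0.44, -0.47 and -0.59, calls that were each lost without RG11N replicate 2. Lower calls numbered 1 without RG11N replicate 2, 3 without RG11N replicate 3, 1 without the 5 libraries with antennal transcripts and 9 with DESeq2. Of 46 cuticle proteins 3 were called lower (6.52%, against 3.61% of all genes) and 0 higher at a median of -0.98. The count was 1 without RG11N replicate 2 or 3, 8 with DESeq2 and 0 with voom.

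A few proteasome genes were lower. Of 37 tested subunits 5 were called lower (13.5%, against 3.61% of all genes) and 0 higher, with a median of -0.23 and 2 above 0. Prosalpha1 was at 23.1, 23.2 and 23.5 CPM in RG11N and 30.6 to 68.5 CPM elsewhere (-1.11 ± 0.13, adjusted p = 3.21e-05, edgeR), its near copy Prosalpha1R fell by 0.91 ± 0.13 (adjusted p = 0.000183), and CG18853 between them was also lower. The 3 lie side by side over 7827303 to 7831771 on arm 2R, phr and CG18853 overlap the pair on the opposite strand, and reads may not be assignable between copies. Prosbeta6 (-0.51 ± 0.11, adjusted p = 0.00780) and Prosbeta2 (-0.47 ± 0.12, adjusted p = 0.0204) lay elsewhere, on arm 3L, and lost their calls without RG11N replicate 2, Prosbeta2 also without replicate 3. The lower calls numbered 2 without RG11N replicate 2, 9 without CS replicate 3, 3 without the 5 libraries with antennal transcripts and 11 with DESeq2.

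Cytosolic ribosomal proteins had 4 of 85 called lower and 0 higher at a median of -0.13, close to the 3.61% of all genes, and 1 was called without RG11N replicate 1 or without the 5 libraries with antennal transcripts. Nuclear genes of oxidative phosphorylation had 2 of 68 called lower and 0 higher at a median of -0.20, with 0 lower without RG11N replicate 1 or 2, CS replicate 1 or hybrid replicate 1 or 3, and 7 without CS replicate 3.

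Genes of male identity and of leg patterning gave few calls. fru, whose male isoforms set courtship circuits, was at 89.2, 110 and 85.1 CPM in RG11N and 74.0 to 110 CPM elsewhere (0.12 ± 0.12, adjusted p = 0.653, edgeR). dsx, the terminal sex determination factor, was at 200, 222 and 181 CPM against 172 to 274 CPM (0.03 ± 0.11, adjusted p = 0.929). Of 12 sex determination and courtship genes 1 was called higher (8.33%, against 3.88% of all genes) and 0 lower. That gene was lov, a BTB factor linked to courtship, at 32.2, 30.7 and 34.4 CPM against 8.53 to 19.1 CPM (1.27 ± 0.16, adjusted p = 7.50e-05, edgeR). None of 22 leg and taste bristle transcription factors and none of 8 dosage compensation genes was called.

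Several single genes outside the lists differed widely. m (miniature), which encodes a membrane protein known from the wing, was at 28.9, 50.2 and 35.7 CPM in RG11N and 0.296 to 2.88 CPM in the others, a 28.6-fold difference (log2 4.84 ± 0.48, adjusted p = 0.000183, edgeR). lncRNA:CR42844 was at 44.5, 80.3 and 47.4 CPM against at most 1.74 CPM (6.67 ± 0.42, adjusted p = 3.92e-06). Of abundant noncoding RNAs, lncRNA:CR34335 fell from 1468 to 2142 CPM in the others to 701, 527 and 643 CPM (-1.48 ± 0.13, adjusted p = 7.29e-07). smp-30, named after its values were seen, was at 52.4, 86.1 and 61.4 CPM against 7.87 to 15.8 CPM (2.68 ± 0.17, adjusted p = 1.92e-08). MtnA, a metallothionein, also named after its values were seen, was at 312, 353 and 341 CPM against 46.2 to 189 CPM (2.001 ± 0.22, adjusted p = 0.000302).

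v (vermilion), a tryptophan dioxygenase of eye pigment synthesis, was at 1.14, 0.677 and 0.517 CPM in RG11N and 2.19 to 13.3 CPM elsewhere (-3.27 ± 0.47, adjusted p = 0.000204). MAGE, a subunit of a chromosome-maintenance complex, had counts in 1 RG11N library, at 0.355 CPM, and at least 3.67 CPM in each of the 9 others (-5.79 ± 0.84, adjusted p = 0.000565). Nox, an NADPH oxidase, was at 0.199, 1.43 and 4.04 CPM against 16.5 to 44.7 CPM (-3.99 ± 0.77, adjusted p = 0.0173; 0.0897 without RG11N replicate 2), and CG8060 overlaps it on the opposite strand.

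Called genes were spread over the genome. Of tested genes on each arm, 6.90% were called on 2L, 8.60% on 2R, 7.54% on 3L, 7.46% on 3R and 6.58% on X, against 7.49% overall. On chromosome 4, 8 of 98 tested genes were called, all higher. There were 6 runs of 3 neighbouring tested genes called in one direction. They included the Prosalpha1 and GstD3 runs and ana3, CG30047 and CG30049 over 12344983 to 12359087 on 2R, where CG30049 was at 8.15, 5.73 and 6.56 CPM in RG11N and in 1 of the 9 others, at 0.282 CPM. The call of ana3 held in 4 of the 12 fits that left out 1 library. Protein-coding genes were called in 7.76%, pseudogenes in 10.4% and noncoding RNAs in 2.81%. Besides the overlaps given above, elav, repo, ITP, Gr32a, Ugt36A1, Tep2, Mal-A1, Gpdh1, Pgk, Pgm1, Zw, bond, Prosbeta2 and dsx overlap a gene on the opposite strand, and Syx1A, futsch, Ten-a and lov one on the same strand, so their counts are uncertain to that extent.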

How the data were processed

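The authors deposited raw counts per FlyBase gene of polyA-selected RNA from male forelegs, made with Nextera XT libraries per the labels' protocols; Subread and build dm6 are named in the submitters' processing notes, with versions not given. Strandedness, multi-mapping and annotation release are not given in the sources used here. Symbols and positions came from Ensembl BDGP6, the same assembly as dm6, for 17710 of 17807 identifiers; the other 97 stayed in. Differences were fitted in edgeR 4.0.16 (R 4.3.3; TMM, filterByExpr with minimum count 10, robust quasi-likelihood F test, 1 model of 4 group means, Benjamini-Hochberg adjusted over 10996 genes; called under 0.05). SE is the absolute log2 difference over the square root of F. Single-gene CPM used TMM-scaled library sizes, and sums, Orco, Obp83a, lush, opsin and Cyp4g1 marker levels total counts. The log2 CPM used a prior count of 2. Reaching 3 counts takes 0.0833 to 0.114 CPM; such floors cover counting error only. The p-values measure the spread between these libraries, about which the labels say only biological replicate. Members and gene lists were chosen with earlier results of these data known. Named genes are up to 12 per direction by size and 8 by level among called genes without overlap, called genes at 0 on one side, up to 4 called genes per list, neighbouring runs and a short set list; 64 more were named after their values were seen. The fit was checked on simulated data. Settings varied were RLE and upper-quartile scaling, no or a stricter filter (at least 5 CPM in 3 libraries), DESeq2 1.42.0, voom in limma 3.58.1, a replicate block, covariates for odorant receptor and muscle sums, 2 groups, the hybrid left out, 5 libraries or mitochondrial genes left out, and each library left out. Sequences were not used here. Python 3.11.15, pandas 2.3.3 and matplotlib 3.10.9 made tables and figures.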

Additional observations from a re-analysis of the deposited data

How the results depend on the processing

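The 824 calls (427 higher, 397 lower) were 834 with RLE factors, 869 with upper-quartile factors (57.1% of them higher, against 51.8%), 858 with no filter, 873 with the strict filter and 814 with voom (61.2% higher). DESeq2 called 1231, with 658 lower. In 2 groups with no genotype term 573 were called, 282 of them higher, and with the hybrid left out of the contrast 620. Without the 5 libraries with antennal transcripts the counts were 340 in all, 156 higher and 184 lower, and those without overlap fell from 540 to 337, with 153 higher; fewer samples enter that fit. Leaving out single libraries gave 450 to 1009 calls, 229 to 553 higher and 221 to 456 lower, and 384 to 671 without overlap. The labels do not say whether equal replicate numbers pair libraries. Deviations of same-numbered libraries correlated from -0.0894 to 0.209, and those of differently numbered libraries from -0.128 to 0.0964. Within each genotype, the muscle sum was highest in replicate 1 of CO13N, CS and hybrid and lowest in replicate 1 of RG11N. A fit with the number as a block called 903 (446 higher, 457 lower). It had 8 genes of chitin and cuticle formation lower in place of 5, and 9 dpr and DIP genes higher in place of 6. It also had 5 odorant-binding proteins higher and 5 lower in place of 2 and 3. CheA and CheB genes had 3 higher in place of 1, and neuropeptides 2 lower in place of 1. The muscle median was -0.07 with 15 of 33 above 0 in place of -0.61 with 3. Genes that were not called changed sign: Gr32a to -0.00868 with voom and from -0.5543 to 0.8198 over fits without 1 library, dsx to -0.01124 with the hybrid left out and from -0.04666 to 0.1012, repo from -0.06622 to 0.3217 and fru from -0.00245 to 0.1875. Why these values moved was not tested. With 3 libraries per group, the median SE of 0.22 (log2) limits small differences, and the smallest difference called was 0.31.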
